A study of Mus musculus with 6 samples.

Results

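The Cxcl9, Cxcl10 and Cxcl11 locus is a 90 kb stretch of mouse chromosome 5 (chr5:92730000-92820000, build mm9) that holds 3 neighbouring chemokine genes. Its members are the deposited peaks that lie in this window, 51 of the 257266 peaks in the 5 lists, together with the aligned reads that fall there in all 8 libraries. By list they are 10 of 12237 p300 peaks after LPS and 3 of 12421 untreated p300 peaks. They are also 13 of 74365 PU.1 peaks after LPS, 9 of 73500 untreated PU.1 peaks and 16 of 84743 H3K4me1 peaks. The window was chosen by gene position, with earlier results of these data known. One of its PU.1 sites stood among the largest LPS to untreated ratios in those results, so the LPS contrasts are given here as a description and support nothing.

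The study mapped candidate enhancers by chromatin immunoprecipitation and sequencing (ChIP-seq) in macrophages grown from the bone marrow of Fvb mice and used on day 7 of culture. Treated cells had received lipopolysaccharide (LPS, a glycolipid of the outer membrane of Gram-negative bacteria) at 10 ng/ml for 2 h, and the others were left untreated. Chromatin of all cells was fixed for 10 min in 1% formaldehyde. p300 was measured in 2 biological replicates with LPS and 2 without, PU.1 in 1 library with LPS and 1 without, and H3K4me1 and input DNA in 1 untreated library each. The files hold no expression values, and no mm9 gene annotation was used, so the labelled cell type was not checked against marker genes and gene starts were not placed on this build.

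Cxcl9, Cxcl10 and Cxcl11 encode small secreted proteins that share the receptor Cxcr3 and draw activated T cells and natural killer cells towards their source. They are textbook interferon-induced genes, and macrophages that sense LPS switch on Cxcl10 early, through NF-kB and interferon-regulatory factors. p300 is a histone acetyltransferase found at active enhancers and promoters, PU.1 is the ETS-family factor that opens enhancers in the macrophage lineage, and H3K4me1 (histone H3 with 1 methyl group on lysine 4) marks enhancers, active or poised. In the RefSeq table the order of genes is Naaa, Sdad1, Cxcl9, Art3, Cxcl10, Cxcl11, Nup54 and Scarb2, and Cxcl10 and Cxcl11 lie inside the span annotated for Art3. That table lists Cxcl11 as a transcribed pseudogene, which conflicts with the description of its protein above. Whether these cells make the Cxcl11 protein was not tested.

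The 250 bases before the RefSeq start of Cxcl9 and of Cxcl10 are shown because the p300 site with the most LPS reads and the largest PU.1 ratios of the locus lay at Cxcl10. They come from RefSeq on build GRCm38.p6, whose positions cannot be set beside the mm9 positions of the peaks, and 2 of the 3 members were matched. Both genes lie on the minus strand, and each sequence reads in the direction of the gene up to the base before its start. Capitals mark matches to the motifs described after the sequences.
Cxcl9, chr5:92328080-92328329, minus strand: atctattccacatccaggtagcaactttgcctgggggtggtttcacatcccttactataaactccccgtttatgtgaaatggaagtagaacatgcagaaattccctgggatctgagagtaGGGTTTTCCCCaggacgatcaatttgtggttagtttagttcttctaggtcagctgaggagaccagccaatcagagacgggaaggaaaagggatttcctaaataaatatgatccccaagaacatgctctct
Cxcl10, chr5:92348890-92349139, minus strand: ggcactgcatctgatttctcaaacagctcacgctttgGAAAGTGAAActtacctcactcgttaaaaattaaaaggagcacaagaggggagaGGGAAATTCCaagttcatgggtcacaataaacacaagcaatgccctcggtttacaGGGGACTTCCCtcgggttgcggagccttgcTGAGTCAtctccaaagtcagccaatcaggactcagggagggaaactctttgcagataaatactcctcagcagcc

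Both strands were searched for 5 motifs, and positions count back from the gene's start, with -1 as the last base shown. An interferon-response-like motif (GAAA, any 2 bases, GAAA) matched the Cxcl10 window once, at positions -213 to -204, and 2.98% of the 32851 RefSeq promoters of the same length held it. An AP-1-like motif (TGANTCA) matched Cxcl10 once, at positions -74 to -68, against 6.75% of all promoters. An NF-kB-like motif (GGG and CC with any 5 bases between) is common, in 45.8% of promoters. It matched Cxcl10 at 3 places, of which those starting at -104 and -103 overlap, and Cxcl9 at 2 overlapping places starting at -130 and -129. Neither window held the letters of the STAT-like (7.02% of promoters) or PU.1-like (2.44%) motif. A match is a description of the letters and not evidence that a factor binds there.

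The 8 libraries held 5744811 to 7828655 aligned reads, and the counts below are distinct reads, of which each position and strand kept 1. Within the 90 kb, p300 had 397 and 1001 reads in LPS replicates 1 and 2, against 363 and 429 in untreated replicates 1 and 2. PU.1 had 1123 reads with LPS and 568 without, and H3K4me1 had 1000 reads against 387 of input. Over the window as a whole LPS replicate 1 lay between the untreated libraries, and LPS replicate 2 held the most of the 4. All peaks of the 5 lists together merged into 16 regions that cover 21170 bp, 23.5% of the window. These regions held 50.6% and 73.8% of the p300 reads of the locus in LPS replicates 1 and 2, against 26.7% and 51.5% in untreated replicates 1 and 2. Input had 33.3% of its locus reads there (28.7 to 38.3, exact binomial 95% interval), so the share of untreated replicate 1 was not above that of input.

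**Figure D1:**
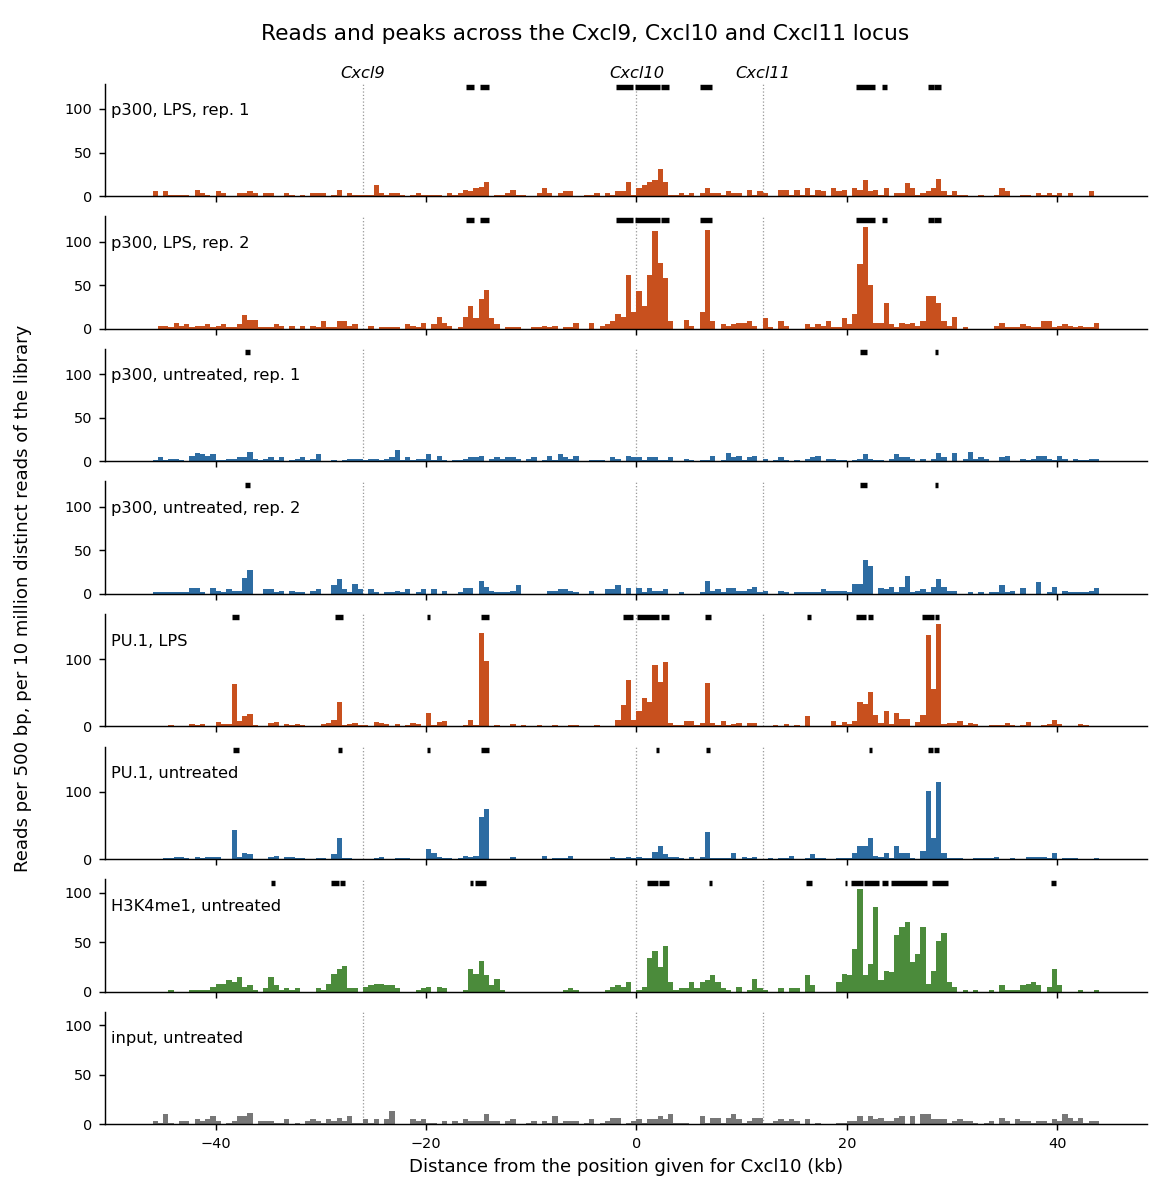
Reads per 500 bp, scaled to 10000000 distinct reads of each library (vertical axes, shared within p300, within PU.1 and within H3K4me1 and input), by distance from the position given for Cxcl10 in kb. Black bars are the deposited peaks (p300 lists are pooled over replicates) and dotted lines the positions given for the 3 genes. Columns around Cxcl10 stand high with LPS in p300 replicate 2 and in PU.1, and the H3K4me1 columns are highest 20 to 29 kb from Cxcl10.

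In the peak regions of the locus p300 was higher with LPS in both replicates. Besides H3K4me1 peaks, the regions draw on 10 LPS and 3 untreated p300 peaks, and on 13 LPS and 9 untreated PU.1 peaks. They were thus chosen in part by their LPS reads, and the ratios in them are a description. The p300 ratios set libraries of the same replicate number against each other. Those numbers were not stated to pair the samples, and another pairing would give other ratios. After scaling by all p300 sites, the ratio of LPS to untreated reads was 1.61 in replicate 1 (201 against 97 reads, interval 1.26 to 2.08) and 3.83 in replicate 2 (739 against 221 reads, interval 3.29 to 4.47). PU.1 had 964 reads with LPS and 453 untreated in the same regions, a ratio of 2.13 (1.90 to 2.38). Intervals of ratios are exact 95% intervals conditional on the sum of the reads. They cover counting error only. Scaled by total distinct reads, the replicate 1 ratio was 2.42 and the replicate 2 ratio 3.41. Over the whole window, scaled by p300 sites, replicate 1 had a ratio of 0.852 (0.737 to 0.985) and replicate 2 one of 2.67. Outside the peaks these were 0.574 (0.475 to 0.693) and 1.44 (1.20 to 1.74). Scaled by total distinct reads, replicate 1 had 1.28 (1.11 to 1.48) over the whole window and 0.861 (0.712 to 1.04) outside the peaks. Replicate 2 then had 2.38 and 1.28. The direction of replicate 1 over the window thus depended on the scaling, as did whether its interval outside the peaks lay below 1.

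The p300 peaks of both conditions merged into 11 sites of the locus. They are numbered 1 to 11 by increasing coordinate, and all passed the minimum of 10 reads over the 4 libraries. Of these, 8 came from the LPS list alone, 2 (sites 8 and 11) from both lists and 1 (site 1) from the untreated list alone. Values below are normalised reads, the reads of a site divided by the scaled size of the library, and log2 fold changes are LPS over untreated with the SE of limma voom fitted on all 19727 p300 sites.

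Site 5 (chr5:92775895-92778254) spans the position given for Cxcl10 and had more LPS p300 reads than any other site of the locus. It had 48 and 182 reads in LPS replicates 1 and 2, against 11 and 12 in untreated replicates 1 and 2. Normalised, it averaged 94.1 ± 34.7 with LPS and 13.6 ± 9.63 untreated (SD, n = 2 each), and both LPS libraries stood above both untreated ones. The log2 fold change was 3.14 ± 0.59, and 1.97 with untreated replicate 2 left out. The peak had rank 89 among the 12237 peaks of the LPS list by the authors' score.

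Sites 4 and 6 flank it, and with site 5 they take up most of 5 kb around the gene. Site 4 (chr5:92774066-92775695) had 16 and 64 reads in LPS replicates 1 and 2, against 7 and 8 in untreated replicates 1 and 2, with a log2 fold change of 2.37 ± 0.58 that became 1.09 with untreated replicate 2 left out. Site 6 (chr5:92778374-92779106) had 9 and 40 reads with LPS, against 2 and 4 untreated, and a log2 fold change of 2.73 ± 0.79. At both sites each LPS library was above each untreated one after scaling. Neither had a peak in the untreated p300 list.

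Those 3 sites at Cxcl10 are the ones that limma voom called at a Benjamini-Hochberg threshold of 0.05 over all sites, each as higher with LPS. Of all 19727 sites, 1.97% were called higher and 0.213% lower. The window was chosen with this contrast known, so nothing is read from the comparison of 3 in 11 with that share. Both LPS libraries exceeded both untreated libraries at 10 of the 11 sites, beside 26.9% of all sites, and the median log2 fold change was 1.83 over the 11 sites and 0.00 over all sites. Of the 11 sites, 8 came from the LPS list alone and 1 from the untreated list alone, against 7507 and 7601 of all sites. Membership thus favoured sites high with LPS, and nothing is read from these comparisons either. The 3 calls depend on scaling and on single libraries. The fit called 0 sites of the locus, and 0 of the genome, with libraries scaled by total reads or by 10 kb background bins, and also without LPS replicate 1, without LPS replicate 2 or without untreated replicate 2. In those 5 fits 2 to 8 of the 11 sites still had an unadjusted p under 0.05, and site 1 was the only one with a negative change.

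Sites 2 and 3 lie between Cxcl9 and Cxcl10, 10.2 and 11.5 kb from the position given for Cxcl9. Site 3 (chr5:92761080-92761999) had 15 and 46 reads in LPS replicates 1 and 2, against 3 and 13 in untreated replicates 1 and 2, with a log2 fold change of 1.80 ± 0.60. Site 2 (chr5:92759802-92760589) had 7 and 22 reads with LPS, against 5 and 5 untreated (1.76 ± 0.65). With libraries paired by replicate number, site 3 had nearly the same ratio in both replicates, 3.90 and 4.05. The ratios of site 2 were 1.09 and 5.04. Without untreated replicate 2 the log2 fold change of site 2 was 0.28.

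Site 1 (chr5:92738782-92739232), on the other side of Cxcl9, was the only p300 site of the locus with fewer reads after LPS. It had 4 and 11 reads in LPS replicates 1 and 2, against 8 and 22 in untreated replicates 1 and 2, and a log2 fold change of -0.93 ± 0.63. After scaling, at 5.80 and 7.17 normalised reads with LPS, against 14.9 and 12.5 untreated, both LPS libraries were below both untreated ones. The fit did not call the site. It had neither a PU.1 peak nor an H3K4me1 peak.

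Site 7 (chr5:92782077-92783218) has its centre at -5.35 kb from the position given for Cxcl11 and is the p300 site nearest to it. It had 9 and 81 reads in LPS replicates 1 and 2, against 4 and 12 in untreated replicates 1 and 2, and a log2 fold change of 1.83 ± 0.59. The LPS replicates differed widely here, at 13.0 and 52.8 normalised reads, against 7.44 and 6.83 untreated. With LPS replicate 1 left out the log2 fold change became 2.90, and with LPS replicate 2 left out it became 0.91.

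Sites 8 to 11 form a second cluster, 9.77 to 16.6 kb beyond the position given for Cxcl11, and hold 2 of the 3 untreated p300 peaks of the locus. Site 8 (chr5:92796875-92798669) had 21 and 149 reads in LPS replicates 1 and 2, against 10 and 50 in untreated replicates 1 and 2. It was the highest of the 11 sites in untreated replicate 2, and its log2 fold change was 1.12 ± 0.54. Without LPS replicate 1 that change was 2.15, and without LPS replicate 2 it was 0.53. Site 11 (chr5:92804301-92804911) had 11 and 20 reads with LPS, against 6 and 11 untreated (0.97 ± 0.58), and was the other site found in both peak lists. With untreated replicate 2 left out its log2 fold change became 0.23.

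Within that cluster, sites 9 and 10 had no reads at all in untreated replicate 1. Site 10 (chr5:92803716-92804261) had 7 and 39 reads in LPS replicates 1 and 2, against 0 and 4 in untreated replicates 1 and 2. Its fitted log2 fold change of 3.28 ± 1.13 was the largest of the locus but rests on those few untreated reads. In replicate 1 the counting interval of the ratio had a lower bound of 1.12 and no upper bound. Site 9 (chr5:92799343-92799817) had 5 and 20 reads with LPS, against 0 and 7 untreated (2.06 ± 1.06, or 3.51 with untreated replicate 2 left out), and its replicate 1 interval reached down to 0.714.

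**Figure D2:**
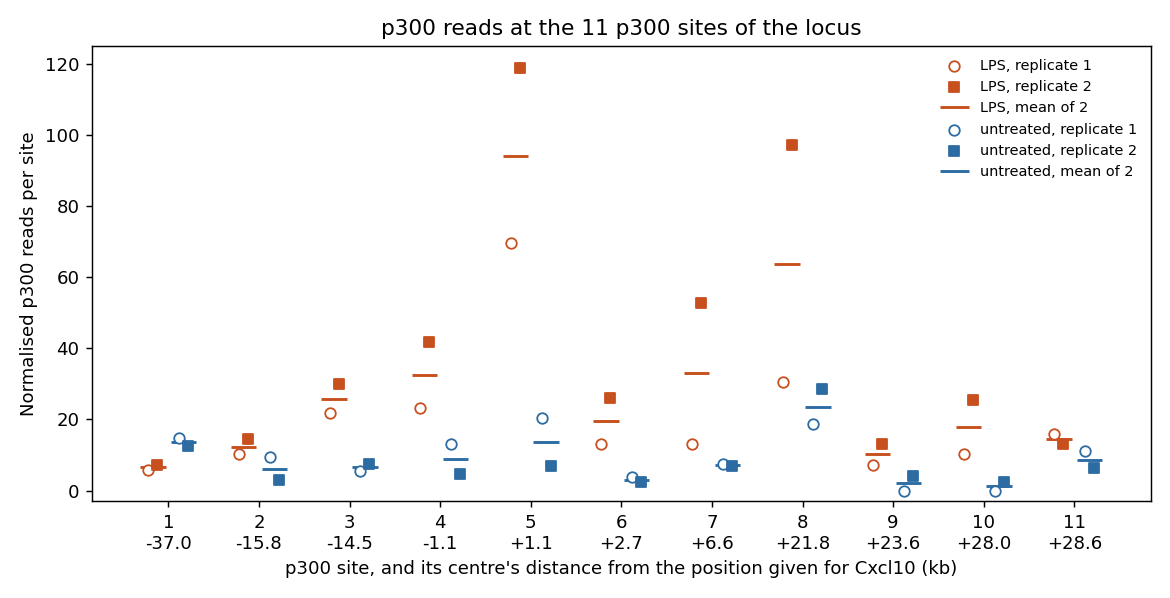
Normalised p300 reads (vertical axis) at the 11 p300 sites (horizontal axis, with the distance of each centre from the position given for Cxcl10 in kb). LPS stands left of untreated at each site, open circles are replicate 1, filled squares replicate 2, and bars the means of 2. LPS and untreated points do not overlap at any site, and site 1 is the only one with LPS below untreated.

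Paired by replicate number, the replicates had the same direction at all 11 sites and differed in size. LPS and untreated libraries stood apart at every site, so the direction holds in either pairing. The sizes of the ratios depend on the pairing, which the labels do not give. In replicate 1 the ratio of LPS to untreated normalised reads ran from 0.390 to 3.90 at the 9 sites with untreated reads, and sites 9 and 10 had none. The median over the 11 sites was 1.78, and the counting interval lay above 1 at 3 of them. In replicate 2 the ratio ran from 0.573 to 17.4 with a median of 5.04, and 9 of the 11 intervals lay above 1. As scaled for the fit, LPS replicate 1 was 45.0% as large as LPS replicate 2, and the untreated replicate 1 library was 30.6% as large as its replicate 2. The part of this enrichment difference in the results was not tested.

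**Figure D3:**
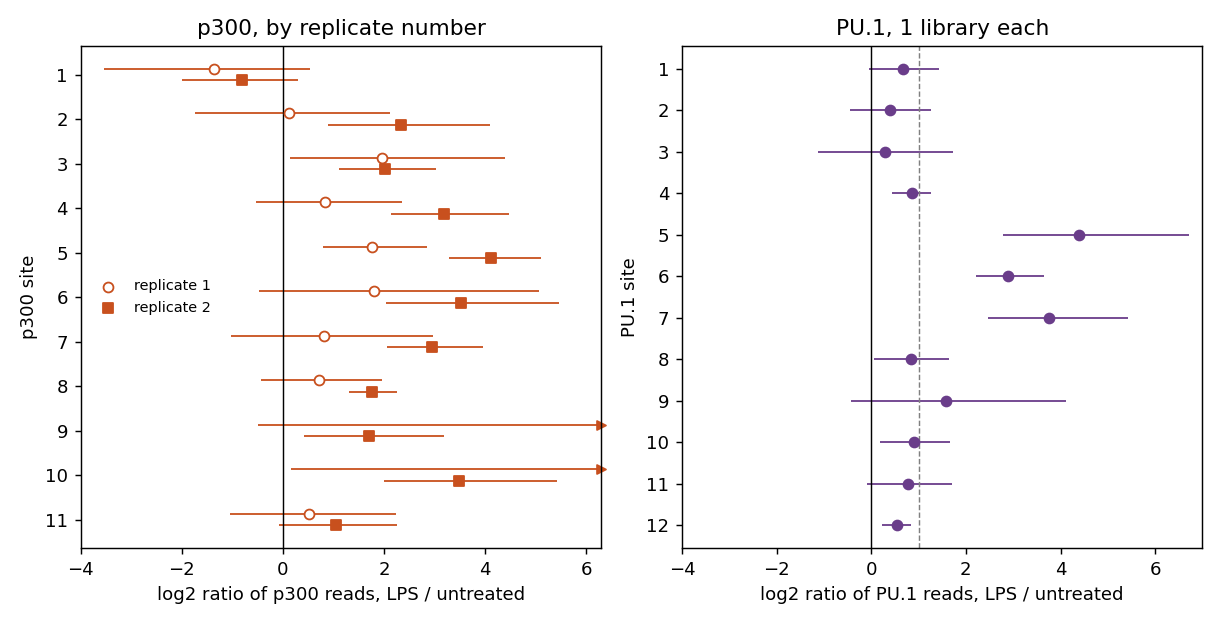
Log2 ratios of LPS to untreated reads with exact 95% intervals for counting error, for p300 by replicate number at 11 sites (left) and for PU.1 at 12 sites (right); arrows mark replicate 1 ratios without an upper bound. The dashed line marks 2-fold, and PU.1 sites 5, 6 and 7 are the ones whose whole interval lies beyond it.

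PU.1 peaks of both conditions merged into 12 sites, numbered 1 to 12 by coordinate, of which 4 came from the LPS list alone and 8 from both. The deposited list of untreated PU.1 peaks carries LPS in its first line and was taken here as untreated, as its sample is labelled. Over the genome, the 15145 peaks of the LPS list alone had 209123 reads with LPS and 99952 untreated, and the 14146 peaks of the untreated list alone had 112968 with LPS and 205549 untreated. With 1 library per condition there is no replicate check, and a ratio compares these libraries. LPS reads exceeded untreated reads at all 12 sites, 10 of them with at least 40 reads. Over the genome they did so at 44.5% of the sites at that depth. The median ratio was 1.80 over those 10 sites of the locus and 0.972 over all 42940. No site of the locus came from the untreated list alone, as the 14146 peaks above did, so the direction was set in part by how the sites entered. The interval lay above 1 at 7 of the 10 sites, beside 7.92% of the 42940. It lay wholly beyond 2-fold higher at 3 of the 10, beside 0.564%, and wholly beyond 2-fold lower at 0, beside 0.0536%.

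The 3 sites beyond 2-fold surround Cxcl10 and fall on p300 sites 4, 5 and 6. PU.1 site 5 (chr5:92774672-92775702) had 63 reads with LPS and 3 untreated, a ratio of 21.0 (6.87 to 105) that ranked 5 among the 42940. PU.1 site 6 (chr5:92776012-92778155) had 149 reads with LPS and 20 untreated, a ratio of 7.45 (4.65 to 12.5). PU.1 site 7 (chr5:92778355-92779070) had 68 reads with LPS and 5 untreated, a ratio of 13.6 (5.55 to 43.2), and ranked 12. Sites 5 and 7 had no untreated PU.1 peak, and site 6 had an untreated peak of 222 bp inside its 2144 bp. The authors' LPS scores of these 3 peaks were low, at 63.22, 66.45 and 84.48, and placed them in the lower part of that list. With peaks of score at least 100, sites 5 and 7 were not retained, and site 6 was reduced to its untreated peak, with a ratio of 3.50 (1.94 to 6.70). Under that threshold 0 sites of the locus had their whole interval beyond 2-fold.

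The other PU.1 sites already had reads in untreated cells and ratios below 2, apart from a weak site near Cxcl11. PU.1 site 12 (chr5:92803141-92804781), in the cluster beyond Cxcl11, was the strongest, with 216 reads with LPS and 149 untreated, a ratio of 1.45 (1.17 to 1.80). PU.1 site 4 (chr5:92761182-92761989), on p300 site 3, had 141 reads with LPS and 78 untreated, a ratio of 1.81 (1.36 to 2.42). PU.1 site 10 (chr5:92796829-92797824), on p300 site 8, had 47 reads with LPS and 25 untreated, a ratio of 1.88 (1.13 to 3.19). The remaining 6 sites had 12 to 70 reads in both libraries together. The weakest of them, PU.1 site 9 (chr5:92792253-92792554), had 9 reads with LPS and 3 untreated.

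Much of the added PU.1 lay outside the resting PU.1 peaks. Inside the 9 untreated peaks, which cover 3907 bp, PU.1 had 533 reads with LPS and 328 untreated, a ratio of 1.62 (1.41 to 1.87). In the other 6480 bp of the 12 merged sites it had 315 reads with LPS and 54 untreated, a ratio of 5.83 (4.36 to 7.94). The same ratios over all PU.1 sites of the genome were 0.935 inside and 2.33 outside. Regions in the LPS list and not in the untreated one were chosen by their LPS reads, so the second ratio of each pair is a description. At PU.1 site 6, the resting 222 bp had 51 reads with LPS and 15 untreated, and the rest of the site had 98 with LPS and 5 untreated.

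At Cxcl10 the reads had a sharp summit and a wide skirt. The densest 200 bp of LPS p300 reads in site 5 centred on 92778035. Untreated PU.1 was searched only inside its resting peak of 222 bp, which left a 200 bp stretch little room to move. The densest 200 bp of untreated PU.1 there centred on 92778014, 20.5 bp away. In the 100 bp bin 2045 bp above the position given for Cxcl10, LPS p300 had 5 and 29 reads in replicates 1 and 2, against 0 and 0 untreated, and PU.1 had 29 reads with LPS and 8 untreated. Another PU.1 summit stood in the bin 2845 bp above that position, with 30 reads with LPS and 1 untreated. On the other side, in the bin at -755 bp, PU.1 had 15 reads with LPS and 0 untreated. Cxcl10 lies on the minus strand and spans 2252 bp in the RefSeq table. The end of the gene that the given position marks was not stated, so none of these summits is assigned to a gene start.

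**Figure D4:**
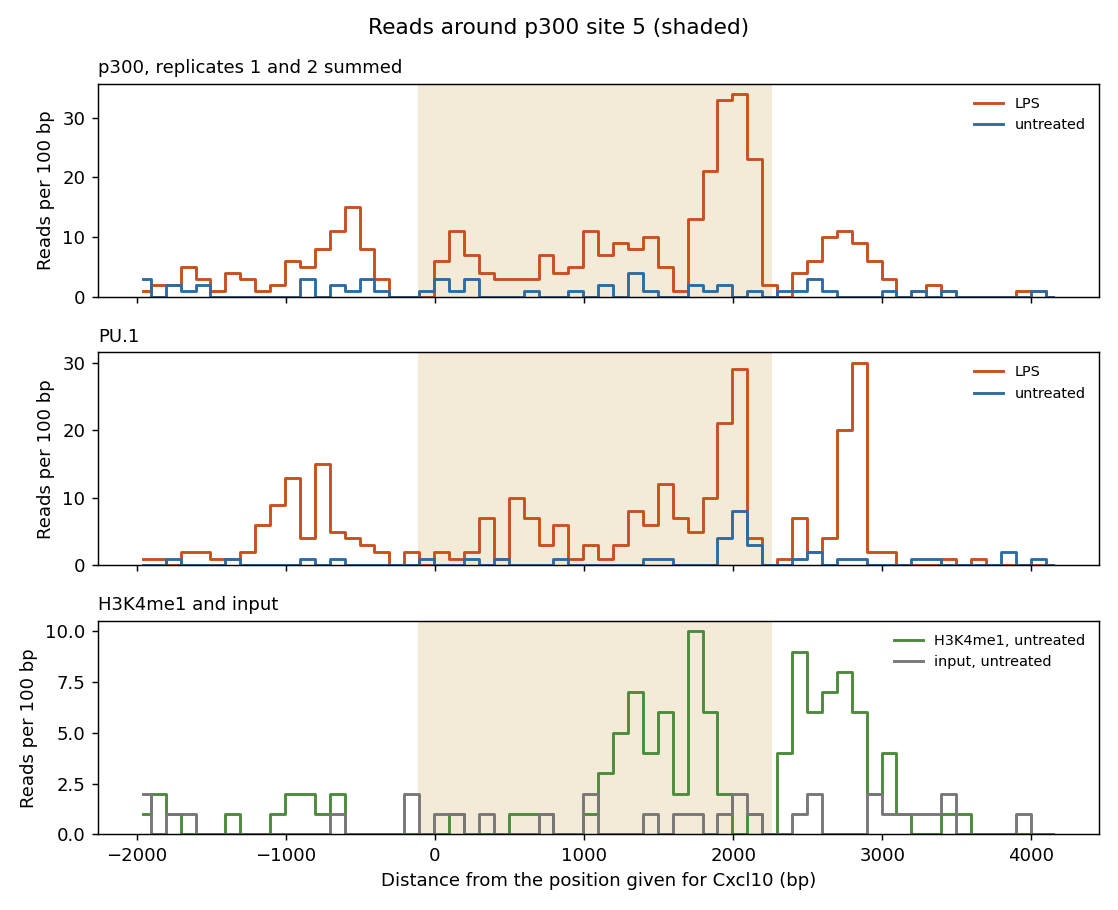
Distinct reads per 100 bp (vertical axes) by distance from the position given for Cxcl10 in bp, with p300 site 5 shaded: p300 with replicates summed (top), PU.1 (middle), H3K4me1 and input (bottom). With LPS, p300 and PU.1 share a summit near 2045 bp, and PU.1 has further summits near 2845 bp and -755 bp, while untreated reads stay low except for PU.1 at the shared summit.

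The distance between the densest LPS p300 and the densest resting PU.1 differed among the 6 p300 sites that held an untreated PU.1 peak. It was 20.5 bp at site 5 and 43.5 bp at site 11. It was 135, 145 and 190.5 bp at sites 3, 7 and 10, and 681 bp at site 8. The other 5 p300 sites had no resting PU.1 peak. LPS p300 was searched over the whole site and resting PU.1 only within its untreated peaks. The distances therefore depend on where those peaks were called. At site 8 the 25 untreated reads of PU.1 site 10 fell outside the search.

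H3K4me1, measured in untreated cells alone, was already present at 9 of the 10 LPS p300 peaks of the locus. Its 16 peaks, 230 to 3403 bp wide, cover 16.4% of the window. The strongest peaks by the authors' score lie in the cluster beyond Cxcl11, at chr5:92800188-92803590 (score 871.18) and chr5:92796388-92797563 (score 686.53). The first had 211 H3K4me1 reads against 22 of input and overlapped no p300 peak. The second had 97 reads against 8 and lies on p300 site 8.

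Within 1 kb of the centres of the 11 p300 sites, the log2 ratio of H3K4me1 to input had a median of 1.97 and ran from -0.01 to 3.17, beside a median of 1.39 over all 19727 sites. Site 8 was the highest, with 135 H3K4me1 reads against 14 of input, and site 1 the lowest, with 17 against 17. Merged into 7 windows, these surroundings had 537 H3K4me1 reads against 120 of input, a ratio of 4.44 (3.64 to 5.46). Around Cxcl10 the mark was uneven. Site 4 had no H3K4me1 peak and 13 reads against 7 of input within 1 kb, whereas site 6 had 66 against 16.

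H3K4me1 dipped at the densest LPS p300 stretch of sites 5, 8 and 10, and not at that of site 6. In the bin 2045 bp above the position given for Cxcl10 it had 0 reads against 2 of input, with 10 reads in the bin at 1745 bp and 9 in the bin at 2445 bp. The largest dip inside the cluster beyond Cxcl11 ran from 92803591 to 92804082, 492 bp with 4 H3K4me1 reads and 7 of input, between peaks of score 871.18 and 480.84. p300 site 10 lies over this dip, with 16.5 H3K4me1 reads per kb inside the site and 56 per kb in the 500 bp on each side, and site 5 had 21.6 inside and 32 outside. At site 8 the densest LPS p300 stretch centred on 92797615, in a gap of 107 bp between H3K4me1 peaks with 0 H3K4me1 reads and 1 of input. At site 6 the densest LPS p300 stretch centred on 92778708, and the bins at 2645 and 2745 bp had 7 and 8 H3K4me1 reads. The stretches of the remaining sites are not given here. Counted over the whole site, 9 of the 11 sites, all but sites 5 and 10, had more H3K4me1 reads per kb inside than in those flanks. Site 8 was among these 9, with 67.4 inside and 57 outside, as was site 6 with 58.7 inside and 9 outside. Reads of 1 library set these small counts, so they carry no replicate error.

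Of the 10 LPS p300 peaks of the locus, 8 overlapped an LPS PU.1 peak, 6 an untreated PU.1 peak and 9 an H3K4me1 peak. Over all LPS p300 peaks the shares were 54.3%, 50.9% and 50.7%. Of the 3 untreated p300 peaks, 1 overlapped an untreated PU.1 peak and 2 an H3K4me1 peak, beside 59.3% and 56.3% of all untreated p300 peaks. Among the LPS p300 peaks, those of sites 2 and 9 had an H3K4me1 peak and no PU.1 peak. The peak of site 4 had an LPS PU.1 peak and neither an untreated PU.1 peak nor an H3K4me1 peak. At site 6 only the untreated PU.1 peak was missing. Among the untreated p300 peaks, that of site 1 overlapped neither kind. The untreated p300 peak of site 8 overlapped an H3K4me1 peak and no untreated PU.1 peak.

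LPS p300 peaks were dense here. Among 29311 windows of 90 kb along the genome, 10 (0.0341%) held at least 10 LPS p300 peaks, with a mean of 0.417 and a highest count of 18. At least 3 untreated p300 peaks were held by 1113 windows (3.80%). The locus window was placed around chosen genes with results of these data known, unlike the windows of the genome, so these shares are a description. The nearest LPS p300 peaks outside lie 20.9 kb before it and 12.6 kb after it, with scores of 53.81 and 54.48, and the first one inside starts at 92759802 with a score of 101.71 while the last ends at 92804911 with a score of 112.47. The nearest LPS PU.1 peaks outside are closer, at 8.73 and 3.12 kb, with scores of 151.23 and 264.47.

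Among 8640 other p300 sites with at least 40 p300 reads, the 3 with the pattern most like p300 site 5 were found by the distance between log2 normalised reads of the 4 p300 and 2 PU.1 libraries. They lie at chr12:27138491-27141886, chr19:34714629-34716006 and chr7:129608438-129610376, at distances of 0.789, 0.874 and 1.03, beside a median of 4.95. The first had 72 and 228 p300 reads in LPS replicates 1 and 2, against 14 and 13 in untreated replicates 1 and 2, and 139 PU.1 reads with LPS against 18 untreated. The second had 54 and 174 p300 reads with LPS, against 13 and 9 untreated, and 91 PU.1 reads with LPS against 19 untreated. No gene is named for these sites, since no annotation of build mm9 was used.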

How the data were processed

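ChIP-seq reads and peak lists of macrophages, with and without LPS, were used as the authors deposited them, on mouse build mm9 per the submitters' processing notes. Each deposited read file gives reads by position and strand. Each deposited peak list gives a score made by the authors with MACS, which the deposited column description defines as the -log10 p-value multiplied by 10. p300 lists were called on pooled replicates, per the series' design text. The aligner was not given in the sources used here. Coordinates are printed as in the files.

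Reads were counted here with 1 read kept per position and strand, and 5' ends moved 100 bp. p300 peaks of both conditions on chromosomes 1 to 19 and X were merged, and sites with at least 10 reads were fitted with limma voom (limma 3.58.1, R 4.3.3) on treatment, scaled by the median of ratios, with Benjamini-Hochberg adjustment and a threshold of 0.05. Residual variance was estimated as 1 value shared by all sites, so the SE of a site does not reflect how far its own replicates lie apart. In the scaling of PU.1 both libraries had a factor of 1. H3K4me1 ratios had 1 read added. Overlap means at least 1 bp. Code was tested on simulated data. Python 3.11.15 with numpy 2.4.6, pandas 2.3.3 and scipy 1.17.1 was used.

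Libraries held 5503587 to 6428281 distinct reads. All 11 p300 sites are given per library, as are the 5 PU.1 sites with most reads and any beyond 2-fold. The members and lists were chosen with earlier results of these data known. Planned counts near other genes needed an mm9 annotation and were not used here. Alternatives covered scaling, duplicate reads, shift, low-read filter, score threshold, model, window and left-out libraries.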

Additional observations from a re-analysis of the deposited data

How the results depend on the processing

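The number of p300 sites of the locus called higher, 3 with limma voom as described, was 0 when libraries were scaled by total reads or by 10 kb background bins (unadjusted p under 0.05 at 3 of 11 sites in each). It was 5 with limma-trend, 7 with a replicate block and 8 of the 9 remaining sites with peaks of score at least 100. It ran from 0 to 5 when 1 library was left out, with 5 without untreated replicate 1 and 0 without any of the others. It stayed at 3 with all reads kept, without the filter on low reads and with 5' ends moved 50 bp. No site changed sign in any of these 12 fits. Replicate numbers were not stated to pair the samples. The deviations of same-numbered libraries had a correlation of 0.13 over 8641 sites and only 2 pairs, so the block result is a comparison of fits.

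The number of PU.1 sites beyond 2-fold, 3, was 0 with peaks of score at least 100, where 6 sites remained, and 3 in the other alternatives. With the window widened by 50 kb on each side, the ratio in peaks was 2.66 for p300 replicate 2 and 1.43 for PU.1. With total reads it was 2.42 for p300 replicate 1. LPS p300 peaks on LPS PU.1 peaks numbered 3 of 9 with peaks of score at least 100, against 8 of 10. The H3K4me1 ratio stayed between 4.23 and 4.63 in its 3 alternatives. The 4 p300 libraries together held a median of 55 reads per site of the locus, and a site that was not called cannot be read as unchanged.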
